A study of Homo sapiens with 6 samples.

Results

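The Wnt genes described here are the ligands (WNT), the Frizzled receptors (FZD), their co-receptors, the receptors of R-spondins, the secreted inhibitors of the DKK and SFRP families and the central parts of the β-catenin branch of the pathway. They were chosen by gene symbol, and 52 of the 61806 genes in the deposited table met the rule: 19 WNT genes, 10 FZD genes, 4 DKK genes, 4 SFRP genes, the co-receptors LRP5 and LRP6, 3 LGR genes, the ubiquitin ligases RNF43 and ZNRF3, the destruction complex genes APC, AXIN1 and AXIN2, CTNNB1, and the 4 TCF/LEF factors. RNA was sequenced from MDA-MB-231, an established human triple-negative breast cancer cell line, in 6 libraries. By the sample titles, the shNC line carried a control hairpin, with 2 libraries per line. The lines shHMGA2-1 and shHMGA2-2 each carried a different hairpin against HMGA2, a chromatin protein that binds AT-rich DNA. According to the methods the cells were infected with lentivirus under puromycin and knockdown lines were grown from single clones, so that a hairpin and its clone cannot be told apart. No label gives the 2 libraries of a line as separate cultures, and p-values therefore measure only the spread between these libraries. That spread was widest in shHMGA2-1. Its chi-square, scaled by the degrees of freedom, was 6.21, against 2.03 in shNC and 2.91 in shHMGA2-2. The 3 lines were fitted in 1 model with a common spread, so adjusted p-values of small shHMGA2-1 changes may be too low.

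A Wnt ligand is made as a lipid-modified secreted protein that binds a Frizzled receptor together with LRP5 or LRP6. This stops the destruction complex of AXIN, APC and kinases from marking β-catenin (CTNNB1) for degradation, and β-catenin then acts with TCF/LEF factors on target genes. Other ligands, WNT5A among them, signal largely without β-catenin, and in breast tumour cells such signalling is known for its link to migration.

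HMGA2 was at 2126 and 2161 counts in shNC, against 858 and 989 in shHMGA2-1 and 435 and 482 for shHMGA2-2. It was lower than in shNC by a log2 fold change of -1.29 (SE 0.087, adjusted p = 2.17e-11) in shHMGA2-1 and -2.31 (SE 0.093, adjusted p = 2.11e-16) in shHMGA2-2. The library names of the shNC samples read WT and SH2 stands in the names of shHMGA2-1 libraries, so the grouping rests on the sample titles. Whether the shNC cells went through infection, puromycin and cloning is not given by the labels. The libraries held 16461178 to 17167293 counts, with 6.74% to 7.86% from mitochondrial genes, and a count of 0 allowed up to 3 counts (the floor), 0.175 to 0.182 CPM. The defining markers of the line were present, with VIM, a mesenchymal filament gene, at 411 to 432 FPKM. The other markers differed between lines. AXL was at 225 and 232 FPKM in shNC, against 190 and 166.5 in shHMGA2-1 and 126 and 132 in shHMGA2-2. In the same order CAV1 was at 158 and 155, then 99.9 and 112, then 184 and 189 FPKM. CD44 was at 64.9 and 66.0, then 79.8 and 82.9, then 95.8 and 92.6 FPKM. ESR1, PGR and CDH1, which define luminal epithelial cells, had at most 12 counts in any library. GATA3, a luminal transcription factor, was at 38 to 58 counts in shNC and shHMGA2-1 and at 262 and 318 in shHMGA2-2, EPCAM, an epithelial adhesion gene, was at 274 and 302 counts in shHMGA2-1 against 127 to 146 elsewhere, and the collagen gene COL1A1 was at 184 and 237 counts in shHMGA2-1 against 53 to 88 elsewhere. The summed level of the 5 luminal and epithelial markers was 3.82 to 4.61 FPKM in shNC, 7.33 to 7.94 in shHMGA2-1 and 8.16 to 8.99 in shHMGA2-2. Summed leukocyte markers stayed at or below 0.37 FPKM and summed endothelial markers at or below 0.13 in every library. Of the 4 fibroblast markers 3, DCN among them, had 0 counts in every library. The part of these markers in the Wnt results was not tested. In bulk RNA, fewer cells expressing a gene and less RNA per cell cannot be told apart.

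Of the 52 genes, 9 had 0 counts in all 6 libraries, namely WNT2, WNT3A, WNT7A, WNT8A, WNT9B, FZD9, FZD10, DKK4 and SFRP2. Another 6 never exceeded the floor of 3 counts, so 37 genes were above it in at least 1 library. A mean of at least 1 FPKM, a read count divided by gene length and library total, was reached by 23 genes, and 30 were kept by the filter on low counts that preceded testing. The 22 untested genes include 7 that passed the floor, and 2 of these had counts in a single line. RNF43, a ubiquitin ligase that removes Frizzled receptors from the surface, had 6 and 5 counts in shHMGA2-2 and 0 in the other 4 libraries. LGR6, a receptor of R-spondins, had 8 and 2 counts in shHMGA2-1 and 0 in the other 4. The remaining 5 (SFRP4, SFRP5, WNT4, WNT10A and WNT11) had between 0 and 13 counts per library.

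A gene was called when its adjusted p was under 0.05 in the quasi-likelihood test of edgeR, adjusted by Benjamini-Hochberg over the 16110 genes tested, and it passed both thresholds when it also changed at least 2-fold. In shHMGA2-1 against shNC, 4 of the 30 tested Wnt genes were higher and 7 were lower, beside 15.8% higher and 17.6% lower of all genes. Of the 30, 5 passed both thresholds against 8.49% of all genes: FZD3, TCF7L1 and WNT2B were higher, and FZD8 and WNT7B were lower. The median log2 fold change of the tested Wnt genes was 0.0072, and that of all genes was 0.0101.

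In shHMGA2-2 against shNC, 6 Wnt genes were higher and 14 lower, where all genes gave 29.5% and 29.2%. Of the 30, 11 passed both thresholds against 21.3% of all genes, with AXIN1, FZD3, FZD7 and TCF7L1 higher and AXIN2, FZD2, FZD8, LEF1, LGR4, WNT5A and WNT7B lower. The median was -0.33 for the tested Wnt genes and 0.028 for all genes. In the direct comparison of shHMGA2-2 with shHMGA2-1, 5 Wnt genes were higher and 15 lower, with backgrounds of 24.5% and 25.7%. There 8 passed both thresholds against 15.1% of all genes. FZD7 was higher, and AXIN2, FZD2, LEF1, LGR4, WNT5A, WNT7B and WNT8B were lower in shHMGA2-2. The medians were -0.38 and -0.0017. Both comparisons with shNC use the same control libraries, so they are given side by side and not as independent repeats.

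**Figure D1:**
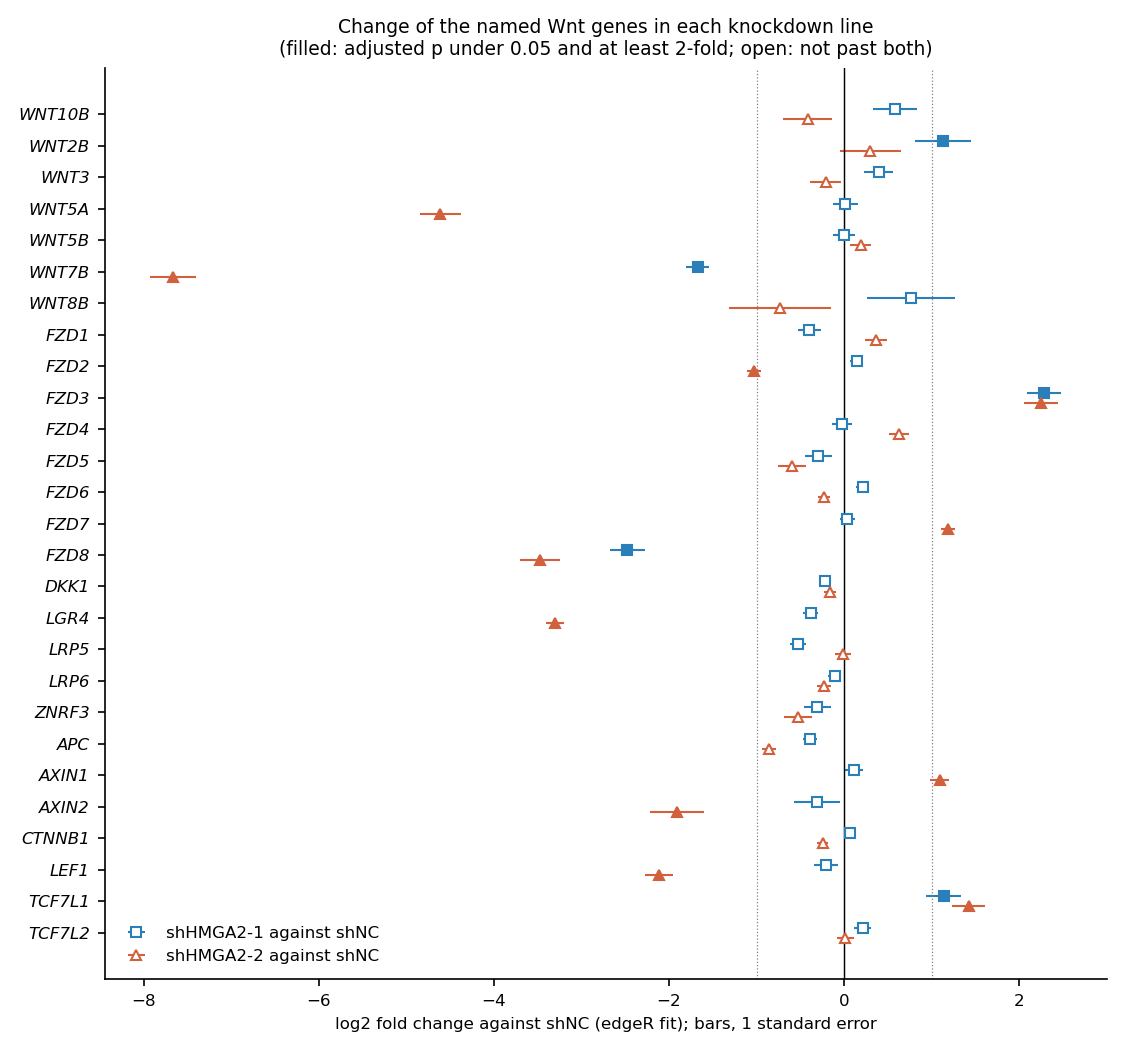
Log2 fold change against shNC (x axis) of the 27 named Wnt genes (y axis) in shHMGA2-1 (squares) and shHMGA2-2 (triangles), with bars of 1 standard error. Filled symbols passed both thresholds, which were reached by 5 genes in shHMGA2-1 and by 11 in shHMGA2-2, with WNT7B at -1.67 and -7.67 in the same order.

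For the genes past both thresholds in shHMGA2-2 whose region before a RefSeq start held no annotated exon, the 250 bases upstream are shown, since these are the regions whose genes changed. The sequences come from RefSeq (GRCh38.p14), written 5′ to 3′ on the gene's own strand, and capitals mark TATAAA. The FZD8 region is chr10:35642297-35642546 (minus strand), that of TCF7L1 is chr2:85133142-85133391 (plus strand), that of WNT5A, for 1 of its starts, is chr3:55481399-55481648 (minus strand), and that of AXIN1 is chr16:352724-352973 (minus strand).
FZD8: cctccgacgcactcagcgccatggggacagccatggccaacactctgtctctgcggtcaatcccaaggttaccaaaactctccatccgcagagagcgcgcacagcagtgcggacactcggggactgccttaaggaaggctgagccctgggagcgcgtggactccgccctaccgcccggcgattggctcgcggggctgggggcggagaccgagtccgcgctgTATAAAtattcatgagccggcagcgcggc
TCF7L1: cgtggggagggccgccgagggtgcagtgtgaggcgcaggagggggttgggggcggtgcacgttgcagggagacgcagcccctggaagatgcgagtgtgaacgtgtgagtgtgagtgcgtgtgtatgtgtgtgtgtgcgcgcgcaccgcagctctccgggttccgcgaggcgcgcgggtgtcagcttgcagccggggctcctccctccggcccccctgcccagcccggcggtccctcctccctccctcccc
WNT5A: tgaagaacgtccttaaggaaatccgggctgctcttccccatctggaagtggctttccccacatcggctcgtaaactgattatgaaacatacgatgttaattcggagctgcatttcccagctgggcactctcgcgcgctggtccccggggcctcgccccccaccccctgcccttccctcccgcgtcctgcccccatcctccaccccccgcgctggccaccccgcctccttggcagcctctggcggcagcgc
AXIN1: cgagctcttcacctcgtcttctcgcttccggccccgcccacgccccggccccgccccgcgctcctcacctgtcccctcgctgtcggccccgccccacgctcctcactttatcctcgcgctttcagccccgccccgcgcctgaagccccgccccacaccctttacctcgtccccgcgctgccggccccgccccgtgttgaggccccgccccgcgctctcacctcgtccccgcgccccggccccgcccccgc
The GC content was 65.2% in the FZD8 region, 72.0% in TCF7L1, 64.4% in WNT5A and 77.6% in AXIN1. The median was 58.0% for all 35116 promoters and 65.2% for those of the Wnt genes. Of the regions not printed, for genes past both thresholds in the same comparison, LEF1 was at 47.6%, the other start of WNT5A at 52.8% and LGR4 at 62.0%. Letters of the TCF/LEF site (AACAAAG, its variant ATCAAAG, its variant TACAAAG or its variant TTCAAAG, on either strand) were found in 12.0% of all promoters and in 3 of the 46 promoters of the 36 Wnt genes with an entry, which belong to DKK1, TCF7 and TCF7L2. None of the 4 regions above held these letters. TATAAA, searched on both strands, was found in 10.7% of all promoters, and in the FZD8 region it began 29 bases before the start. A match of letters describes the sequence only. WNT7B, FZD2, FZD7 and AXIN2 had no entry. FZD3 was among the Wnt genes left out of the promoter set, so whether it had an entry is not shown. The counts of 36 genes and 46 promoters are without the genes left out.

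Among the ligands, WNT7B and WNT5A were lower in shHMGA2-2 and WNT7B was lower in shHMGA2-1 as well. WNT7B, a ligand that can act through β-catenin (GRCh38, chr22:45920366-45977162, minus strand), had 577 and 625 counts in shNC, against 228 and 171 in shHMGA2-1 and 4 and 2 for shHMGA2-2. The 3 lines did not overlap, and 1 of the shHMGA2-2 libraries was under the floor of 3 counts. Its log2 fold change was -1.67 (SE 0.13, adjusted p = 3.56e-10) in shHMGA2-1 and -7.67 (SE 0.26, adjusted p = 1.10e-17) in shHMGA2-2. Per total count, WNT7B was 195 times lower in shHMGA2-2 than in shNC, with an exact 95% counting interval of 89.3 to 532 that covers counting error only. By level it was the highest ligand in shNC, at 6.97 ± 0.40 FPKM (SD, n = 2).

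WNT5A, a ligand known for signalling without β-catenin (chr3:55465715-55490539, minus strand), had 265 and 250 counts in shNC, against 248 and 301 in shHMGA2-1 and 9 and 13 for shHMGA2-2. Both shHMGA2-2 libraries lay far below the other 4, and the shHMGA2-1 libraries spanned those of shNC. The log2 fold change was -4.61 (SE 0.24, adjusted p = 2.39e-14) in shHMGA2-2 and 0.015 (SE 0.14, adjusted p = 0.959) in shHMGA2-1. The antisense gene WNT5A-AS1, which lies across it, had 12 and 19 counts in shNC, against 19 and 11 in shHMGA2-1 and 1 and 2 for shHMGA2-2, and since the strand setting of the counting is not given in the sources used here, reads of the pair cannot be told apart.

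WNT5B, the closest relative of WNT5A, had 350 and 374 counts in shNC, against 434 and 331 in shHMGA2-1 and 444 and 429 for shHMGA2-2. Its log2 fold change against shNC was -3e-04 (adjusted p = 1) in shHMGA2-1 and 0.19 (SE 0.12, adjusted p = 0.178) in shHMGA2-2, so neither passed the test. WNT5B overlaps the protein-coding gene FBXL14 on the other strand. With WNT7B and WNT5A low in shHMGA2-2, WNT5B made up 62.6% and 65.9% of the summed FPKM of all WNT genes there, against 27.1% and 29.04% in shNC and 33.4% and 36.3% in shHMGA2-1. WNT7B made up 37.3% and 40.6% in shNC, against 14.4% and 15.9% in shHMGA2-1 and 0.205% and 0.518% for shHMGA2-2. The sum itself was 17.9 ± 0.035 FPKM in shNC, 15.0 ± 1.95 in shHMGA2-1 and 9.70 ± 0.071 in shHMGA2-2 (SD, n = 2).

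WNT3 and WNT10B, ligands of the β-catenin branch, passed the test between the knockdown lines and not against shNC. WNT3 had 117 and 101 counts in shNC, against 163 and 140 in shHMGA2-1 and 95 and 104 for shHMGA2-2. It was lower in shHMGA2-2 than in shHMGA2-1 by a log2 fold change of -0.61 (SE 0.17, adjusted p = 0.00477). WNT10B had 43 and 44 counts in shNC, against 78 and 60 in shHMGA2-1 and 31 and 38 for shHMGA2-2, with -0.999 (SE 0.26, adjusted p = 0.00280) in the same comparison. In each of these genes both shHMGA2-1 libraries were above both libraries of either other line. Against shNC, neither passed the test in either line, with adjusted p from 0.0770 to 0.322.

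WNT2B, a further β-catenin ligand, had 21 and 22 counts in shNC, against 50 and 50 in shHMGA2-1 and 30 and 26 for shHMGA2-2. It rose in shHMGA2-1 by 1.13 on the log2 scale (SE 0.32, adjusted p = 0.00768), but not without shNC replicate 1 (1.10, adjusted p = 0.0537), and DESeq2 gave adjusted p = 0.0508. ST7L lies across WNT2B on the other strand with 301 to 447 counts, so the value is uncertain. WNT8B was at 24 and 6 counts in shNC, against 30 and 24 in shHMGA2-1 and 6 and 13 for shHMGA2-2. The shNC libraries of WNT8B differed from each other as much as the knockdown lines did, and its difference of -1.497 between shHMGA2-2 and shHMGA2-1 (SE 0.54, adjusted p = 0.0235) was lost without shHMGA2-1 replicate 1 (adjusted p = 0.0822) or shHMGA2-2 replicate 1 (adjusted p = 0.215), with DESeq2 (0.08) and with limma on log2(FPKM + 1) or log2(FPKM + 0.1) (0.0756 and 0.103). Without shNC replicate 1, WNT8B was called higher in shHMGA2-1 (2.06, adjusted p = 0.0304), and without shNC replicate 2 lower in shHMGA2-2 (-1.41, adjusted p = 0.042).

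**Figure D2:**
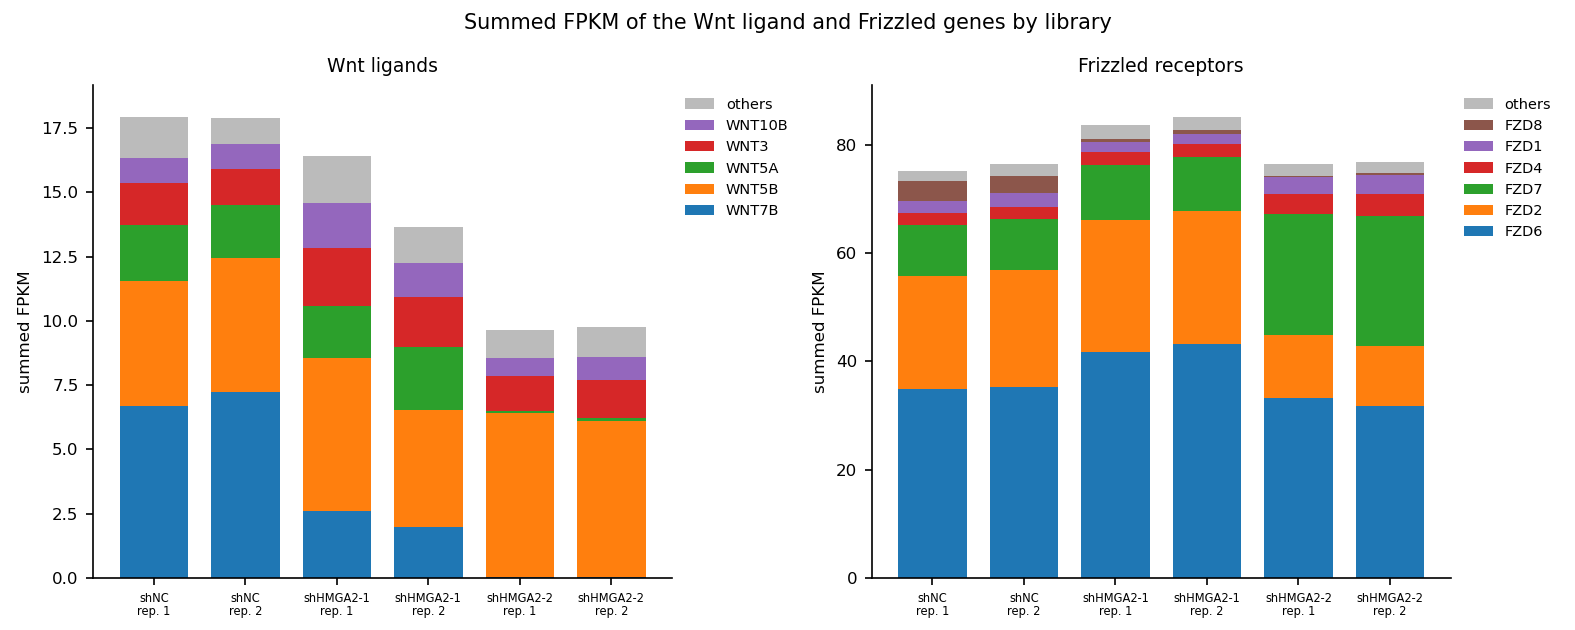
Summed FPKM (y axis) of the WNT ligand genes and of the FZD receptor genes in each library (x axis), with the leading genes as coloured segments and the rest in grey. In the shHMGA2-2 libraries WNT5B is the largest WNT segment, at 62.6% and 65.9%, and the FZD7 segment takes 29.2% and 31.3% of the FZD sum.

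Among the receptors, FZD8 was lower and FZD3 higher than in shNC in both knockdown lines. FZD8, the closest relative of FZD5 (chr10:35638247-35642296, minus strand) had 257 and 219 counts in shNC, against 39 and 51 in shHMGA2-1 and 18 and 27 for shHMGA2-2. All 4 knockdown libraries lay below both shNC libraries. The log2 fold change was -2.48 (SE 0.20, adjusted p = 5.76e-10) in shHMGA2-1 and -3.48 (SE 0.23, adjusted p = 2.36e-12) in shHMGA2-2, 5.57-fold and 11.1-fold lower. FZD3, a receptor known from planar polarity and axon guidance, had 34 and 45 counts in shNC, against 185 and 223 in shHMGA2-1 and 194 and 205 for shHMGA2-2. The knockdown lines overlapped each other and not shNC, and the log2 fold changes were 2.29 (SE 0.20, adjusted p = 1.67e-09) and 2.25 (SE 0.20, adjusted p = 5.81e-10). By level FZD3 stayed low, at 0.17 ± 0.028 FPKM in shNC, 0.86 ± 0.11 in shHMGA2-1 and 0.88 ± 0.035 in shHMGA2-2.

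FZD7 and FZD2, closely related receptors, moved in opposite directions in shHMGA2-2. FZD7 (chr2:202033855-202038441, plus strand) had 732 and 730 counts in shNC, against 804 and 779 in shHMGA2-1 and 1688 and 1830 for shHMGA2-2, and rose in shHMGA2-2 by 1.19 on the log2 scale (SE 0.082, adjusted p = 7.92e-12). FZD2 (chr17:44557484-44561262, plus strand) had 1333 and 1386 counts in shNC, against 1575 and 1595 in shHMGA2-1 and 715 and 692 for shHMGA2-2, and was lower in shHMGA2-2 with -1.03 (SE 0.083, adjusted p = 1.28e-10). In both genes the shHMGA2-2 libraries lay apart from the other 4. Without shHMGA2-2 replicate 2 the FZD2 change was -0.99, just under 2-fold. In shHMGA2-1 the values were 0.036 (adjusted p = 0.793) for FZD7 and 0.14 (adjusted p = 0.176) for FZD2. Directly between the knockdown lines, FZD7 was higher by 1.15 and FZD2 lower by a log2 fold change of -1.17 in shHMGA2-2.

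The remaining receptors changed by less than 2-fold. FZD6, a receptor known from planar polarity and the highest by level in shNC at 35.1 ± 0.23 FPKM, had 2412 and 2435 counts in shNC, against 2917 and 3006 in shHMGA2-1 and 2228 and 2139 for shHMGA2-2. It was higher in shHMGA2-1 (0.21, SE 0.070, adjusted p = 0.0217) and lower in shHMGA2-2 (-0.23, SE 0.070, adjusted p = 0.00709), and the call was lost in each line without shNC replicate 1 or shNC replicate 2 (adjusted p from 0.0522 to 0.186), and in shHMGA2-2 also without shHMGA2-2 replicate 2 (adjusted p = 0.0999). FZD1, like FZD2 and FZD7 a member of 1 subfamily, had 251 and 296 counts in shNC, against 219 and 220 in shHMGA2-1 and 355 and 391 for shHMGA2-2. Its changes of -0.40 (adjusted p = 0.0203) and 0.37 (adjusted p = 0.0126) were lost with DESeq2 (adjusted p = 0.0573 and 0.0526). The former was also lost without shHMGA2-1 replicate 1 (0.0551) or shNC replicate 2 (0.269), and the latter without shHMGA2-2 replicate 2 (0.112) or shNC replicate 1 (0.201). FZD4, which also binds the ligand norrin, had 292 and 291 counts in shNC, against 302 and 304 in shHMGA2-1 and 447 and 508 for shHMGA2-2, and was higher in shHMGA2-2 with 0.63 (SE 0.11, adjusted p = 3.30e-05). FZD4 shares its locus with PRSS23 on the other strand. FZD5 had 207 and 225 counts in shNC, against 206 and 166 in shHMGA2-1 and 167 and 135 for shHMGA2-2, and was lower in shHMGA2-2 with -0.60 (SE 0.16, adjusted p = 0.00207), which was lost without shHMGA2-2 replicate 2 (adjusted p = 0.0634).

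LRP5 and LRP6 are the co-receptors that join a Frizzled receptor to the ligand. LRP5 had 1404 and 1498 counts in shNC, against 1170 and 961 in shHMGA2-1 and 1392 and 1663 for shHMGA2-2. It was lower in shHMGA2-1 (-0.53, SE 0.092, adjusted p = 8.29e-05), and in shHMGA2-2 its libraries spanned those of shNC (-0.0075, adjusted p = 0.9501). LRP6 had 1743 and 1681 counts in shNC, against 1657 and 1700 in shHMGA2-1 and 1557 and 1532 for shHMGA2-2. Its value of -0.23 in shHMGA2-2 (adjusted p = 0.0114) was lost without shNC replicate 1 (adjusted p = 0.113), shNC replicate 2 (adjusted p = 0.0553) or shHMGA2-2 replicate 2 (adjusted p = 0.1).

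LGR4 (chr11:27365961-27472790, minus strand), a receptor of R-spondins that raises the amount of Frizzled at the surface, had 2407 and 2235 counts in shNC, against 1752 and 2007 in shHMGA2-1 and 254 and 242 for shHMGA2-2. The 3 lines did not overlap. Its log2 fold change was -0.38 (SE 0.082, adjusted p = 0.000776) in shHMGA2-1 and -3.31 (SE 0.10, adjusted p = 1.12e-18) in shHMGA2-2, where it was 9.89-fold lower than in shNC. By level it went from 21.5 ± 1.13 FPKM in shNC to 17.3 ± 1.68 in shHMGA2-1 and 2.37 ± 0.092 in shHMGA2-2. ZNRF3, a ubiquitin ligase of the RNF43 kind, had 263 and 247 counts in shNC, against 221 and 214 in shHMGA2-1 and 146 and 229 for shHMGA2-2. The shHMGA2-2 libraries of ZNRF3 differed widely, and its value of -0.53 (SE 0.16, adjusted p = 0.00572) fell short of the test without shHMGA2-2 replicate 1 (-0.26, adjusted p = 0.199).

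**Figure D3:**
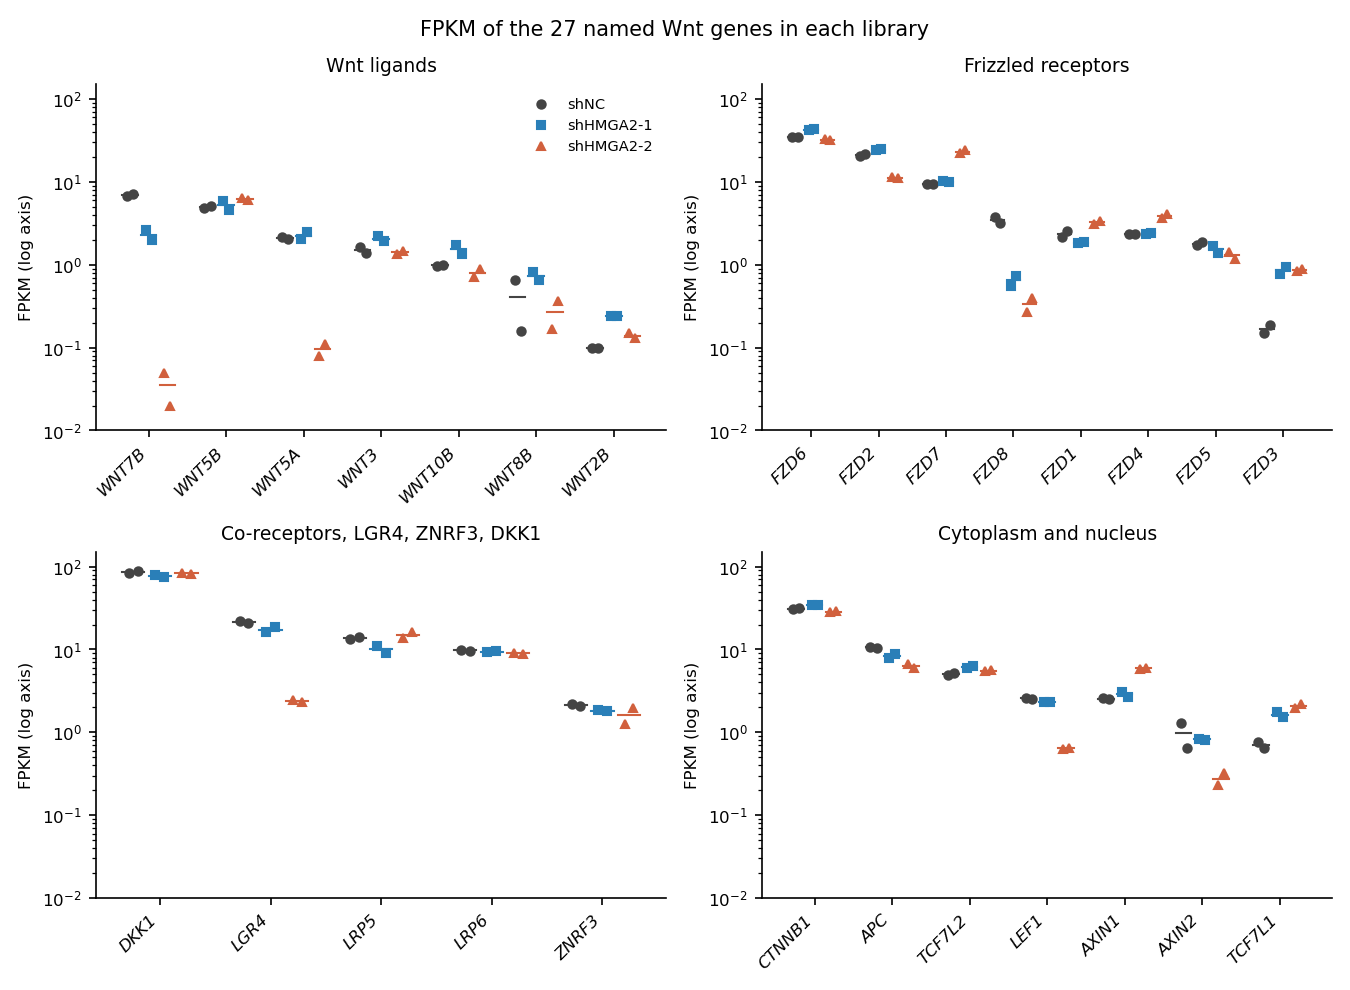
FPKM (log axis) of the 27 named Wnt genes in each of the 6 libraries, with a short line at the mean of each line's 2 libraries. DKK1, LGR4 and CTNNB1 are among the highest, LGR4 is at 2.30 and 2.43 FPKM in the shHMGA2-2 libraries, and WNT7B is at 0.02 and 0.05 there.

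Of the inhibitors, DKK1, which binds LRP5 and LRP6, was the only one with a mean of at least 1 FPKM. DKK1 had 3131 and 3371 counts in shNC, against 3021 and 2869 in shHMGA2-1 and 3096 and 3031 for shHMGA2-2, and its level was 86.2 ± 4.48, 77.3 ± 2.68 and 83.5 ± 1.70 FPKM. It was slightly lower in both lines (-0.22, adjusted p = 0.0143, and -0.17, adjusted p = 0.0405), and neither held under every setting. Without shNC replicate 2 the adjusted p was 0.252 in shHMGA2-1 and 0.365 in shHMGA2-2. In shHMGA2-2 the call was also lost without shNC replicate 1 (0.0595), shHMGA2-2 replicate 1 (0.0695) or shHMGA2-2 replicate 2 (0.222), with adjusted p in brackets. The SFRP genes, decoys that bind the ligands, summed to 0.095, 0.14 and 0.10 FPKM in the 3 lines.

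Within the destruction complex, AXIN1 rose in shHMGA2-2 while APC and AXIN2 were lower. AXIN1 (chr16:287440-352723, minus strand), the scaffold, had 329 and 324 counts in shNC, against 400 and 345 in shHMGA2-1 and 729 and 742 for shHMGA2-2. The shHMGA2-2 libraries lay above the other 4, with a log2 fold change of 1.09 (SE 0.10, adjusted p = 2.66e-09), and shHMGA2-1 gave 0.11 (adjusted p = 0.480). APC, which helps hold β-catenin in the complex, had 2248 and 2219 counts in shNC, against 1695 and 1903 in shHMGA2-1 and 1379 and 1223 for shHMGA2-2. APC was lower in both lines (-0.39, SE 0.083, adjusted p = 0.000677, and -0.86, SE 0.084, adjusted p = 4.32e-09), and the 3 lines did not overlap. AXIN2, a scaffold and a widely used target gene of the pathway, had 114 and 57 counts in shNC, against 74 and 72 in shHMGA2-1 and 20 and 28 for shHMGA2-2. Although the shNC libraries differed from each other, both shHMGA2-2 libraries lay below them, with -1.91 (SE 0.31, adjusted p = 1.16e-05), which became -1.33 when shNC replicate 1 was left out and -2.32 when shNC replicate 2 was. In shHMGA2-1 AXIN2 gave -0.31 (SE 0.26, adjusted p = 0.402).

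CTNNB1, the gene of β-catenin, had 6199 and 6270 counts in shNC, against 6916 and 6909 in shHMGA2-1 and 5441 and 5678 for shHMGA2-2. It was lower in shHMGA2-2 by a log2 fold change of -0.25 (SE 0.060, adjusted p = 0.00111), and in shHMGA2-1 the value was 0.071 (adjusted p = 0.400). The shHMGA2-2 call was lost with limma on log2(FPKM + 1) (-0.123, adjusted p = 0.0527) and on log2(FPKM + 0.1) (-0.126, adjusted p = 0.054). RNA counts do not measure the stability of the protein, at which the destruction complex acts.

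Of the 4 TCF/LEF factors, TCF7L1 was higher in both lines and LEF1 lower in shHMGA2-2. TCF7L1 (chr2:85133392-85310387, plus strand), known mostly as a repressor of Wnt target genes, had 58 and 49 counts in shNC, against 132 and 117 in shHMGA2-1 and 143 and 161 for shHMGA2-2. All 4 knockdown libraries were above both of shNC, with log2 fold changes of 1.14 (SE 0.20, adjusted p = 6.41e-05) and 1.42 (SE 0.19, adjusted p = 6.90e-07). LEF1 (chr4:108047545-108168956, minus strand), a factor that is also a target gene, had 239 and 229 counts in shNC, against 216 and 211 in shHMGA2-1 and 56 and 58 for shHMGA2-2. The shHMGA2-2 libraries lay below the other 4, with -2.12 (SE 0.17, adjusted p = 6.99e-11), and shHMGA2-1 gave -0.21 (SE 0.14, adjusted p = 0.256). TCF7L2, the most abundant of the 4 by FPKM, had 563 and 598 counts in shNC, against 698 and 723 in shHMGA2-1 and 614 and 627 for shHMGA2-2, and did not pass the test in either line (0.21, adjusted p = 0.0870, and 0.016, adjusted p = 0.901). TCF7 was low, at 37 to 67 counts, and gave 0.21 (adjusted p = 0.595) and -0.46 (adjusted p = 0.176).

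When the 4 knockdown libraries were pooled against shNC, so that the distance between the lines counted as spread, 3 Wnt genes passed both thresholds against 3.09% of all genes. FZD3 was higher by 2.27 (SE 0.21, adjusted p = 0.00660), TCF7L1 was higher by 1.29 (SE 0.21, adjusted p = 0.0262), and FZD8 was lower with -2.89 (SE 0.38, adjusted p = 0.0137). WNT7B, lower in each line, did not pass (-2.65, SE 1.35, adjusted p = 0.267), and its knockdown libraries spread widely. Without shNC replicate 1, or without shNC replicate 2, 0 Wnt genes passed both thresholds in edgeR, where 4 of all genes did (498 with every library), and in either case 3 Wnt genes had an unadjusted p under 0.05. DESeq2 on all libraries gave the same count of 3 Wnt genes, where 1007 of all genes passed both thresholds.

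Other genes of the pathway were read from a list of 90, of which 64 were tested. In shHMGA2-1 against shNC 15 were higher and 16 lower (all genes, 15.8% and 17.6%), in shHMGA2-2 against shNC 20 were higher and 27 lower (29.5% and 29.2%), and in shHMGA2-2 against shHMGA2-1 17 were higher and 25 lower (24.5% and 25.7%). Both thresholds were passed by 6 higher and 5 lower of the 64 in shHMGA2-1 (8.49% of all genes) and by 9 higher and 8 lower in shHMGA2-2 (21.3%). The 7 that passed both thresholds in each knockdown line did not all take the same direction. The share of all genes that did so in each line was not taken, and both comparisons use the same shNC libraries. The count of 7 is therefore given without a background. CELSR2, a cadherin of planar polarity, had 93 and 96 counts in shNC, against 256 and 232 in shHMGA2-1 and 553 and 618 for shHMGA2-2 (1.29 and 2.55, adjusted p = 1.31e-07 and 3.05e-14). TRABD2A, a protease known to inactivate Wnt proteins, had 426 and 493, then 244 and 236, then 128 and 91 counts (-1.02 and -2.15, adjusted p = 2.01e-06 and 9.08e-12). TNFRSF19, a target gene, had 93 and 97, then 52 and 48, then 15 and 13 counts (-1.003 and -2.83, adjusted p = 0.00139 and 6.91e-09). These 3 kept 1 direction in both lines.

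GPC4 and PRICKLE2 went in opposite directions in the 2 lines. GPC4, a cell-surface proteoglycan that binds Wnt proteins, had 150 and 160 counts in shNC, against 308 and 360 in shHMGA2-1 and 0 and 1 for shHMGA2-2. It was 302 times lower in shHMGA2-2 than in shNC per total count, with an exact 95% interval of 53.8 to 11960, and was higher in shHMGA2-1 with 1.03 (SE 0.15, adjusted p = 6.50e-06). PRICKLE2, a cytoplasmic protein of planar polarity, had 69 and 73 counts in shNC, against 20 and 23 in shHMGA2-1 and 365 and 337 for shHMGA2-2 (-1.80 and 2.22, adjusted p = 3.08e-06 and 1.69e-11). The shHMGA2-1 libraries were the lowest for PRICKLE2 and the highest for GPC4. DACT3, an inhibitor that acts on Dishevelled, had 1 and 4 counts in shNC, against 14 and 10 in shHMGA2-1 and 11 and 19 for shHMGA2-2, ratios per total of 4.75 (exact 95% interval 1.78 to 15.95) and 6.17 (2.37 to 20.4). TLE2, a corepressor of TCF factors, had 2 and 4, then 13 and 14, then 12 and 27 counts, ratios of 4.46 (1.80 to 13.2) and 6.68 (2.81 to 19.3). For DACT3 and TLE2 both knockdown lines lay above shNC, at low counts.

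**Figure D4:**
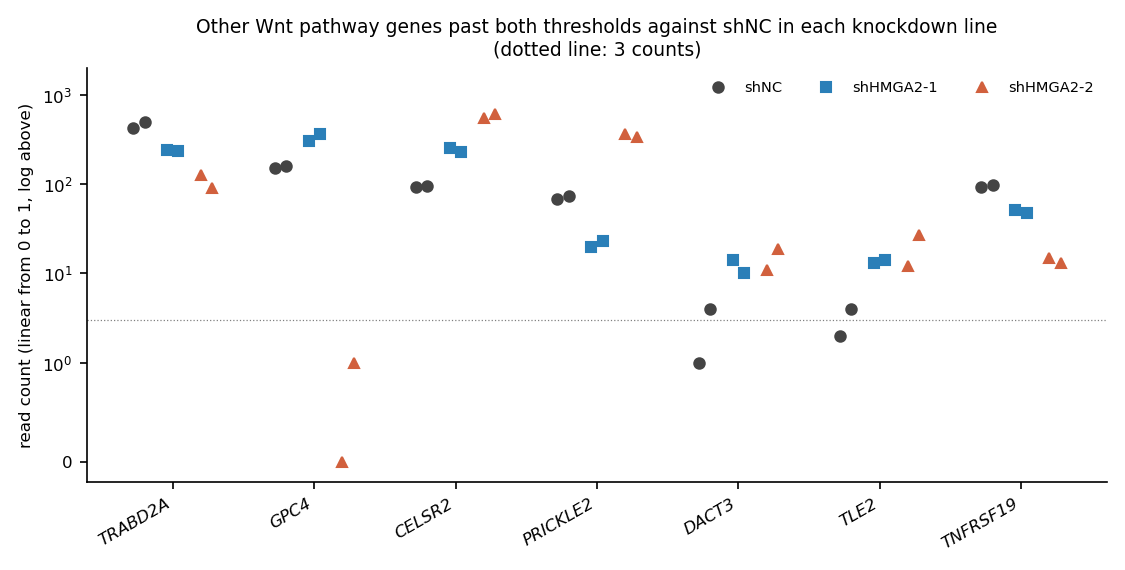
Read counts (y axis, linear from 0 to 1 and log above) of the 7 other pathway genes in each library, with a dotted line at the floor of 3 counts. GPC4 is at 0 and 1 in shHMGA2-2 and at 308 and 360 in shHMGA2-1, and PRICKLE2 is at 365 and 337 in shHMGA2-2 and at 20 and 23 in shHMGA2-1.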

How the data were processed

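The authors deposited 1 table of raw read counts and of FPKM values per gene and library, in which FPKM is the count divided by exonic size and library total. All FPKM values were recomputed from the counts within rounding. The submitters' processing notes name HISAT2 2.2.1, HTSeq 0.6.1 and GRCh38.p13 without a role, and the strand setting is not given in the sources used here. Of the Wnt genes 28 are overlapped by another gene.

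Counts were tested with edgeR 4.0.16 (R 4.3.3; TMM scaling, filterByExpr by line, quasi-likelihood F test, Benjamini-Hochberg adjustment over 16110 genes) in a model of the 3 lines, and in a second model that pooled the knockdown libraries. The thresholds were an adjusted p of 0.05 and a 2-fold change. Alternatives were DESeq2 1.42.0, RLE scaling, no filter on low counts, limma 3.58.1 on log2(FPKM + 1) and log2(FPKM + 0.1), a replicate block, the mean of the hairpin contrasts and each library left out. The fit was tested on simulated data. Standard errors are the log2 fold change over the root of the F statistic. Genes were named when past both thresholds in any comparison of lines or at a mean of at least 1 FPKM, with the core genes CTNNB1, APC, AXIN1, AXIN2, LRP5 and LRP6 added, and other pathway genes when past both thresholds in each knockdown line. The Wnt genes and the lists were chosen with earlier results of these data known. Promoters are the 250 bases before RefSeq starts, and those of Wnt genes on chromosome 8 were left out. Python 3.11.15 was used for the remaining steps.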

Additional observations from a re-analysis of the deposited data

Results flagged for a closer look

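For 8 of the 30 tested Wnt genes the change against shNC differed between the knockdown lines past both thresholds (15.1% of all genes), tested by the direct contrast of shHMGA2-2 with shHMGA2-1 in edgeR. On the log2 scale the difference was -6.0 for WNT7B, -4.63 for WNT5A, -2.92 for LGR4, -1.9 for LEF1, -1.6 for AXIN2, -1.17 for FZD2 and 1.15 for FZD7. WNT8B gave -1.5, the value that was lost without shHMGA2-1 replicate 1 or shHMGA2-2 replicate 1, with DESeq2 and with limma. The cause of these differences was not tested, and hairpin, clone and the depth of the knockdown cannot be told apart. With 2 libraries per line, no library could be tested as standing apart.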

How the results depend on the processing

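Of 972 values (27 Wnt genes in 3 comparisons under 12 settings), 882 kept their direction and their side of the threshold, 58 lost the call, 11 gained one and 21 changed sign, 0 of them with an adjusted p under 0.05. With limma on log2(FPKM + 1), 2 Wnt genes passed both thresholds in shHMGA2-1 (5 in the edgeR fit) and 6 in shHMGA2-2 (11). In the pooled comparison 1 passed (3), beside 192 of all genes (498). For the single lines the count of all genes with limma was not taken. The log2(FPKM + 1) scale shrinks low genes. Limma moved the median of all genes in shHMGA2-2 against shNC by 0.11 with a pseudocount of 1 and 0.12 with 0.1. In the pooled comparison 8 Wnt genes passed by the mean of the hairpin contrasts (2102 of all genes) and 0 to 3 with single libraries left out (4 to 480 of all genes). With the replicate block 1 Wnt gene passed there (138 of all genes), and the edgeR fit gave 498 of all genes. Deviations of same-numbered libraries correlated at -0.022, 0.002 and -0.1 between the lines. Counting noise enters these values, so they cannot show whether same-numbered libraries shared a preparation. Sign changes were as follows, with no call in any. Under limma with pseudocounts of 1 and 0.1, the shHMGA2-1 change was 0.028 and 0.038 for FZD4 and 0.047 and 0.053 for WNT5B, the shHMGA2-2 change of LRP5 was 0.102 and 0.108, and FZD3 between the knockdown lines was at 0.013 and 0.027. Without the filter, WNT5A in shHMGA2-1 was -0.004 and TCF7L2 in shHMGA2-2 was -0.009. With single libraries left out, the shHMGA2-1 change ranged from -0.148 to 0.162 for WNT5A, from -0.72 to 0.273 for AXIN2 and from -0.192 to 0.167 for WNT5B. The shHMGA2-2 change ranged from -1.407 to 0.563 for WNT8B, from -0.035 to 0.06 for TCF7L2 and from -0.126 to 0.095 for LRP5. Between the knockdown lines FZD3 ranged from -0.178 to 0.123 and ZNRF3 from -0.557 to 0.051. Calls gained between the knockdown lines were WNT5B without shHMGA2-1 replicate 1 (0.382, adjusted p = 0.011), TCF7L2 without the same library (-0.238, 0.0423), FZD5 without shHMGA2-1 replicate 2 (-0.433, 0.0431) and ZNRF3 without shHMGA2-2 replicate 2 (-0.557, 0.0196). FZD8 lost its call there without shHMGA2-1 replicate 2 (0.0711) or shHMGA2-2 replicate 1 (0.0908). With limma on log2(FPKM + 1), FZD2 (0.199, adjusted p = 0.0339) and WNT10B (0.357, 0.0461) gained calls in shHMGA2-1 against shNC. On log2(FPKM + 0.1), FZD2 (0.207, 0.0347) and TCF7L2 (0.273, 0.0487) did so. Leaving out shHMGA2-1 replicate 1 gave 0.254 for TCF7L2 in that comparison. The cause of these shifts was not tested.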

Other observations

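The pathway genes named here were picked after their values were seen, and stand as single values. PORCN, the enzyme that attaches the lipid to Wnt proteins, had 94 and 104 counts in shNC, against 95 and 95 in shHMGA2-1 and 329 and 352 for shHMGA2-2, and rose there by 1.70 on the log2 scale (SE 0.15, adjusted p = 3.94e-10). ROR1, a receptor of WNT5A, had 357 and 342, then 379 and 387, then 905 and 958 counts (1.33 in shHMGA2-2, adjusted p = 2.40e-11), while WNT5A itself was low there. VANGL1, a planar polarity gene, had 2993 and 2846, then 3282 and 3540, then 1088 and 1108 counts (-1.49, adjusted p = 1.61e-14). ID2, an inhibitor of helix-loop-helix factors, had 4 and 11 counts in shNC, against 3 and 5 in shHMGA2-1 and 209 and 274 for shHMGA2-2 (4.90, adjusted p = 7.71e-13). Past both thresholds in shHMGA2-1 and not in shHMGA2-2 were JAG1, whose values follow, PTK7, a receptor of planar polarity (1.14 and 0.11, adjusted p = 2.69e-10 and 0.322), FRAT1, which binds GSK3 (1.12 and 0.30, adjusted p = 0.0170 and 0.533), and BCL9L, a cofactor of β-catenin (-1.23 and -0.77, adjusted p = 1.73e-11 and 1.12e-08).

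Of the 11 tested genes on the list of canonical targets, 3 were higher (29.5% of all genes) and 7 lower (29.2%) in shHMGA2-2 against shNC. The former were CD44, ID2 and MYC and the latter BMP4, CCND1, FOSL1, JAG1, PLAUR, SP5 and TNFRSF19. In shHMGA2-1 against shNC 2 were higher and 4 lower (15.8% and 17.6%). Between the knockdown lines 4 were higher and 5 lower in shHMGA2-2 (24.5% and 25.7%). The list was chosen with earlier results of these data known. In shHMGA2-2 against shNC, MYC was higher with 0.26 (adjusted p = 0.00282). There CCND1, a cell-cycle gene, was lower with -0.82 (adjusted p = 2.36e-11), and FOSL1, an AP-1 factor, was lower with -1.02. NKD1, a feedback inhibitor, had 0 counts in shNC, against 1 and 1 in shHMGA2-1 and 15 and 17 for shHMGA2-2. JAG1, a Notch ligand, was lower in shHMGA2-1 with -1.05 (adjusted p = 1.85e-09) and at -0.21 in shHMGA2-2 (adjusted p = 0.0400). BMP4 was lower in both lines (-0.90 and -1.22, adjusted p = 3.00e-08 and 4.45e-11).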
